A study of Mus musculus with 15 samples.

Results

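The early response of organoid lines to induction of the CA19-9 construct was read from RNA alone, as a difference of responses. This difference is the log2 change between 0 and 4 h of doxycycline in lines able to make CA19-9, minus that in lines unable to. Its members were all 12253 of 34554 genes and added sequences with a mean of at least 1 CPM, an estimated count scaled to the library's total, over the 10 of 15 libraries taken at 0 and 4 h. The material was normal mouse pancreatic duct epithelium grown as organoids in Matrigel. Lines A217, A220 and A225 are labelled CA19-9 inducible, and lines A218 and A223, labelled genetic negative, lack one of the alleles that the system needs. The labels do not say which allele is missing, nor how the lines relate to animals. Every line was sampled untreated (0 h) and after 4 h with doxycycline at 1 µg/ml. The doxycycline was timed so that all cultures were harvested together, and the medium had been renewed 24 h before harvest, so the negative lines received the drug and the fresh medium in the same way. Each line is 1 library per time, so p-values here measure the spread between these lines.

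CA19-9 is the sialyl Lewis a epitope, a sialylated and fucosylated sugar structure built on type 1 chains by glycosyltransferases of the Golgi and displayed on mucins and other surface proteins. Clinically it is followed in blood in diseases of the pancreas. The mouse lacks a working fucosyltransferase for the Lewis step, so a mouse model has to be given human enzymes. In a doxycycline system the transactivator rtTA binds its promoter only with the drug present, and a target gene and a fluorescent reporter are then transcribed together. Doxycycline itself acts on mammalian cells, since it can inhibit translation in mitochondria, and a control without the target allele shows such effects.

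The summed human transcripts and the green reporter rose in the inducible lines and did not pass in the negative lines. Of the protein-coding mouse genes 0 passed the edgeR test of the difference at 4 h. Oprd1 and Clock rose in both genotypes and Gclc fell in both, and none of these 3 genes passed the test of the difference.

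The human transcripts, summed over the 16 added to the mouse transcriptome (the files give no gene names for them), checked the labels. At 4 h a pair of them held nearly all the counts of the inducible lines, such as 20059.4 and 16619 in A217. The rest held 3.6, 0 and 43.7 counts in A217, A220 and A225 at 4 h. In the inducible lines they stood at 1.69 CPM in A217, 1.73 in A220 and 3.03 in A225 before doxycycline and at 705, 929 and 867 CPM at 4 h. In the negative lines they were at 0.859 CPM in A218 and 0.954 in A223 at 0 h and at 1.05 and 0.724 CPM at 4 h. All 3 inducible lines lay far above both negative lines at 4 h, with no overlap. The difference of responses was 8.62 ± 0.47 on the log2 scale (SE; 95% interval 7.57 to 9.66; edgeR quasi-likelihood test with the line as block, Benjamini-Hochberg adjusted p = 3.26e-05).

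EGFP, the green fluorescent reporter, behaved in parallel. It went from 0.346, 0.744 and 0.441 CPM to 263, 344 and 313 CPM in A217, A220 and A225, while A218 held 0.312 and 0.35 CPM and A223 held 0.168 and 0.0978 CPM at 0 and 4 h. The difference of responses was 9.36 ± 0.57 (edgeR adjusted p = 4.56e-05), with every inducible line above every negative line.

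The transactivator rtTA3 and the red reporter mKate2 were present in all 5 lines. At 0 h rtTA3 measured 99.8, 153 and 145 CPM in A217, A220 and A225 and 141 and 169 CPM in A218 and A223. At 4 h it measured 76.6, 124 and 130 CPM in the inducible lines and 114 and 124 CPM in the negative ones. It fell by 0.28 ± 0.05 in inducible lines (edgeR adjusted p = 0.008642) and by 0.37 ± 0.06 in negative lines (0.007321), and the interval of the difference ran from -0.07 to 0.26. mKate2 fell too, by 0.27 ± 0.04 in inducible and 0.42 ± 0.05 in negative lines, with an interval of the difference of -0.01 to 0.3.

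**Figure D1:**
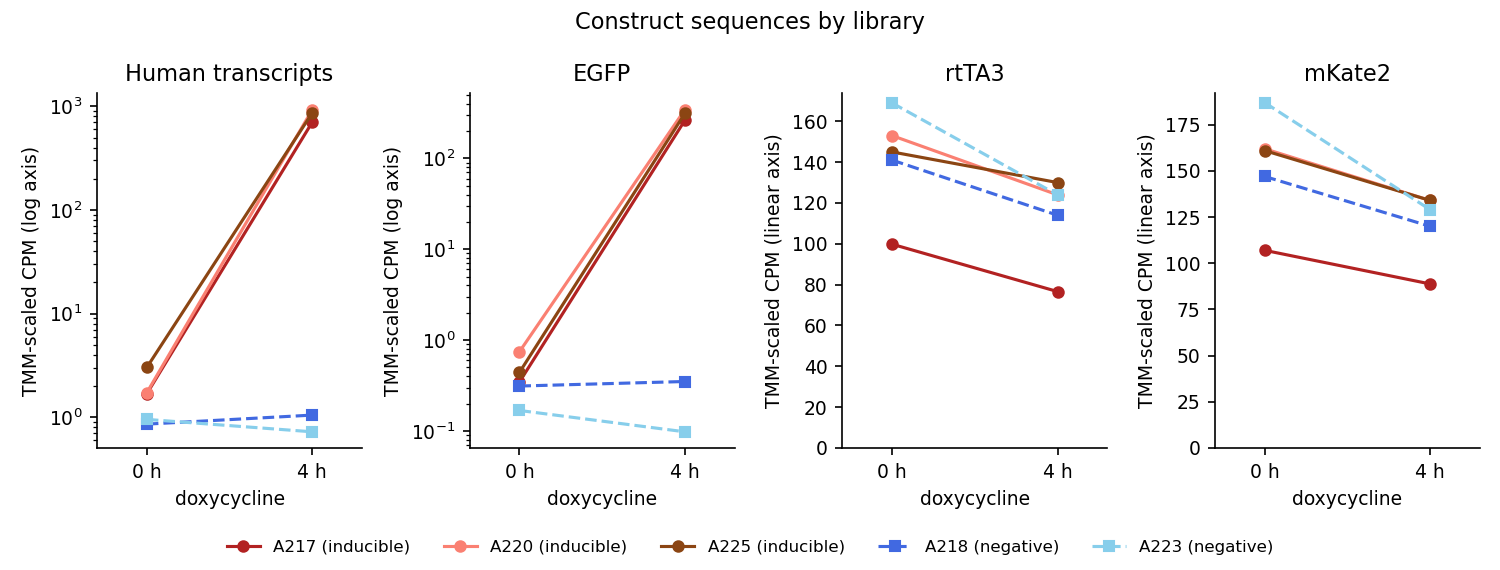
Level of the construct sequences in each of the 10 libraries, in TMM-scaled CPM, joined by line (circles, inducible; squares, negative); the first 2 panels have log axes and the others linear axes from 0. The human transcripts and EGFP reach at least 263 CPM at 4 h in the 3 inducible lines and stay near 1 CPM or below in the negative lines, whereas rtTA3 and mKate2 are lower at 4 h in every line.

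Across all features the edgeR test of the difference called 3 of 12253, which is 0.0245%. All were higher in inducible lines and none was lower. Besides the human transcripts and EGFP, the call fell on Gm11518, an annotated processed pseudogene (ENSMUSG00000081604.5, chromosome 11, 94037218 to 94037628, minus strand, GRCm38). Its estimated counts went from 0 to 490 in A217 and from 1 to 1112 in A225, but were 0 at both times in A220. In the negative lines they went from 15 to 0 in A218 and from 229 to 265 in A223. A220 did not move, and A223 held more counts at 0 h than A217 and A220 together, so the lines do not divide by genotype in level, and the fitted value of 10.25 ± 0.93 (adjusted p = 0.004014) depends on near-empty libraries. The call on Gm11518 was lost in 6 of 16 alternatives, among them DESeq2 (adjusted p = 1), limma-voom (0.4315) and edgeR without the replicate block (0.9998), and the adjusted p ran from 8.68e-10 to 1. Its transcript of 411 bases is identical over its whole length to the coding sequence of Rpl27, a protein of the large ribosomal subunit, and to the pseudogene Rpl27-ps3. Of its 381 words of 31 bases, the k-mer length, 0 are absent from other transcripts in the table, so no read inside it can be assigned to it alone. Summed with Rpl27 and Rpl27-ps3, the level was 516, 510 and 502 CPM at 0 h and 481, 480 and 470 CPM at 4 h in A217, A220 and A225, and 495 and 486 CPM, then 490 and 484 CPM, in A218 and A223. Log2 changes of the sum were -0.1, -0.09 and -0.1 in inducible lines and -0.01 in each negative line, with no rise in any line.

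Of 11855 protein-coding genes 0 passed in edgeR, and the smallest adjusted p among them was 0.0933. At an unadjusted p under 0.05 edgeR held 425 coding genes higher and 241 lower in inducible lines. Over all features 449 (3.66%) were higher and 256 (2.09%) lower at that level, 5.75% in all. Limma, both on voom weights and on the 5 per-line changes, also called 0 coding genes. DESeq2 called 9, of which 8 were higher (Apob, Zbtb20, Huwe1, Lpp, Cnbd2, Srrm2, Ahnak and Zbed6) and 1 lower (mt-Co1). Without an expression filter edgeR called 21 coding genes, without line A225 it called 8, and without line A218 it called 7.

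The errors give the precision of the difference for single genes. The median SE of the difference was 0.086 and the median 95% half-width 0.19 on the log2 scale. For 96% of protein-coding genes the 95% interval lay within a 2-fold difference in either direction, and for 85% within 1.5-fold. Of the 474 coding genes whose interval reached beyond 2-fold, 438 had a mean under 5 CPM. Differences of responses over 2-fold were estimated for 18 coding genes, none of which passed. The intervals are not adjusted for the number of genes, whereas a call needed adjustment over 12253 features. A difference well beyond the median half-width could therefore fail to be called, as for Zbtb20 at 0.8 ± 0.12 (edgeR adjusted p = 0.09335).

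The 4 h responses of which the difference is made were measurable in each genotype. In inducible lines edgeR called 687 features, 5.61% of those tested, 297 higher (2.42%) and 390 lower (3.18%). In negative lines it called 452, or 3.69%, 149 higher (1.22%) and 303 lower (2.47%). There were 260 in both sets, 37.8% of the inducible and 57.5% of the negative calls, and 259 of them had the same direction. Changes past 2-fold were few, 17 of the inducible and 22 of the negative calls. The interval of the difference lay within 1.5-fold for 642 of the 687 and for 402 of the 452. A call in 1 genotype alone therefore does not show a difference between the genotypes, and for none of the coding genes did the test of the difference itself pass.

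Genes that an earlier analysis of these data had named as changed in inducible lines at 4 h were read in both genotypes. Their direction in inducible lines is no new evidence. Of 23 such genes, 20 passed the expression filter, and those 20 were called in both genotypes, 10 higher and 10 lower. Of all inducible calls 37.8% were called in both. For none of the 20 did the difference reach an unadjusted p under 0.05 in edgeR, against 5.75% over all features. Since the set was picked from these same data, that count describes the set and is no test of a shared response. Oprd1, the delta opioid receptor, moved from 5.05, 3.6 and 3.53 CPM to 32.3, 48.1 and 39 CPM in A217, A220 and A225. In A218 and A223 it moved from 3.47 and 3.57 CPM to 36.5 and 32.5 CPM. The genotypes overlapped at both times. It rose by 3.28 ± 0.15 in inducible lines (edgeR adjusted p = 1.26e-06) and 3.29 ± 0.19 in negative lines (3.03e-05), a difference of -0.01 with an interval of -0.56 to 0.54.

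Among the other rising genes were Csf1, macrophage colony-stimulating factor (1.32 in inducible and 1.16 in negative lines), and Slc29a3, a nucleoside transporter of lysosomes (1.26 and 1.23). Clock, a core transcription factor of the circadian clock, rose from 100, 92.2 and 102 CPM to 210, 230 and 265 CPM in the inducible lines and from 102 to 252 CPM in A218. In A223 it started at 95.9 CPM and its log2 change was 1.19. Its difference was 0.01 ± 0.09 (interval -0.18 to 0.2). Tmem165, the Golgi ion transporter whose loss impairs glycosylation and the neighbour of Clock on chromosome 5 (76183880 to 76209245 and 76209868 to 76304792, GRCm38), rose by 1.21 ± 0.08 and 1.22 ± 0.1. Chic2, further along the same chromosome, rose by 1.23 and 1.08, and Exoc1, a subunit of the exocyst complex beyond Clock, by 0.26 and 0.25. The gene with the largest difference among the 20 was Cpeb2, a regulator of translation, at 0.42 ± 0.19 with an interval of -0.01 to 0.84 (edgeR adjusted p = 0.8595).

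The falling genes of that set were mainly targets of NRF2, the transcription factor of the antioxidant response, and growth genes. Gclc, the catalytic subunit of the enzyme that starts glutathione synthesis, fell from 699, 661 and 775 CPM to 407, 364 and 359 CPM in A217, A220 and A225, and from 657 and 719 CPM to 307 and 348 CPM in A218 and A223. Its fall was 0.92 ± 0.05 and 1.07 ± 0.07 on the log2 scale in inducible and negative lines, with overlapping per-line changes. Slc7a11, the cystine importer, fell by 0.57 and 0.68, Osgin1 by 0.67 and 0.76, Srxn1, sulfiredoxin, by 0.53 and 0.56, and Myc, the growth-promoting transcription factor, by 0.43 and 0.58. Of the 23 NRF2 targets, all measured, 9 fell in inducible and 8 in negative lines (3.18% and 2.47% of all features fell), the median difference was 0.03 and 0 were called for the difference. Of 24 measured genes of MYC and ribosome biogenesis, 9 and 7 fell, to be read against the same shares, with a median difference of -0.01.

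The 3 members of the set under the filter were Vstm2b, Nmu and Muc13. Nmu, the peptide neuromedin U, had 0 estimated counts in all 5 libraries at 0 h and 18, 22 and 29 counts in A217, A220 and A225 and 35 and 24 in A218 and A223 at 4 h. Muc13, a transmembrane mucin, went from 5, 2 and 1 counts to 50, 50 and 32 in the inducible lines and from 15 and 4 to 44 and 35 in the negative lines. Vstm2b went from 1, 1 and 0 counts to 64, 55 and 29, and from 0 and 0 to 45 and 28. In each of the 3 genes every line was higher at 4 h and the genotypes overlapped.

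**Figure D2:**
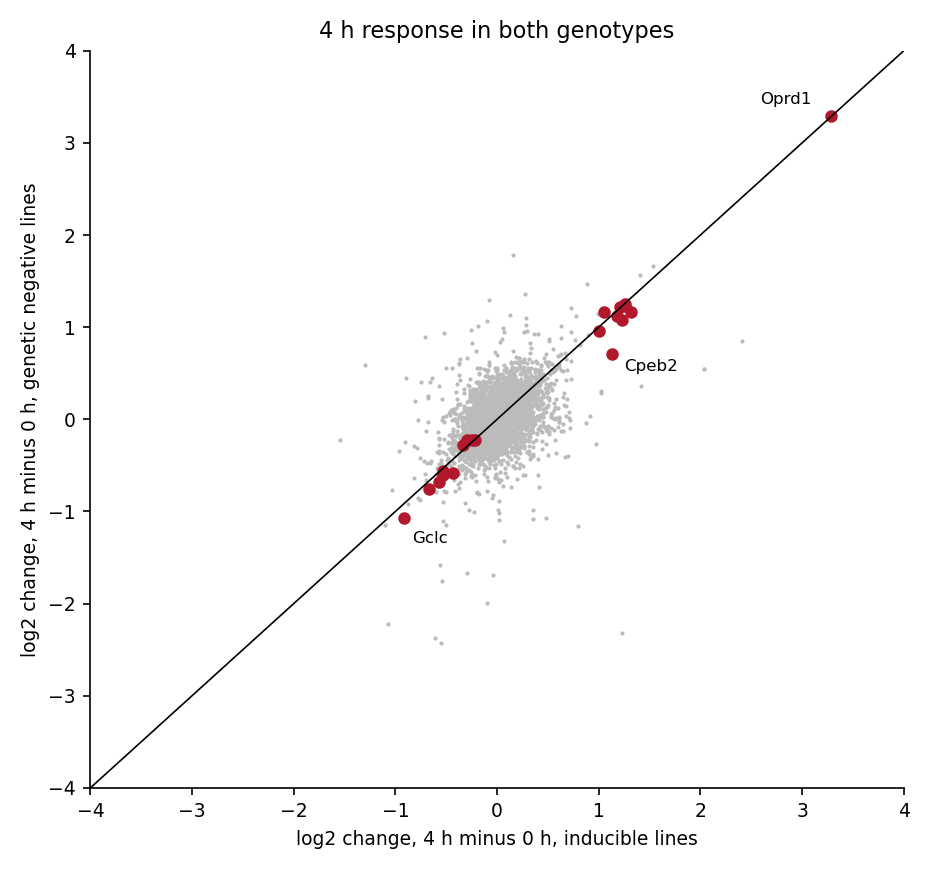
Log2 change from 0 to 4 h in negative lines (y) against that in inducible lines (x) from the edgeR fit, for 12250 features without the 3 called for the difference; red marks the 20 measured responders and the line marks equal change. 12249 features lie inside the axes, and the red points sit close to the line, from Gclc at -0.92 and -1.07 to Oprd1 at 3.28 and 3.29.

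The glycan pathway was read next, since its enzymes share donors, acceptors and compartment with the introduced step. Of 57 glycosyltransferase genes of Lewis, mucin-type and sialylated glycans, 42 were measured and 0 were called for the difference. At an unadjusted p under 0.05 in edgeR, 3 of the 42 were higher (7.14%, against 3.66% over all features) and 0 were lower. Their median difference was 0.04, against 0 over all features, and 38 of the 42 intervals lay within 1.5-fold. B3galt5, the mouse galactosyltransferase of type 1 chains, was under the filter, with 25, 23 and 12 estimated counts in A217, A220 and A225 at 0 h, 15, 11 and 13 at 4 h, and 10 and 31, then 17 and 32, in A218 and A223. Fut2, which adds the H-type fucose, was at 87.3, 87.6 and 77.2 CPM and then 95.2, 94.6 and 76.5 CPM in inducible lines, and at 92.3 and 88.9 and then 92.1 and 85.8 CPM in negative lines. All 3 inducible lines lay below both negative lines at 0 h and the genotypes overlapped at 4 h. The per-line changes overlapped, and the interval of the difference was -0.04 to 0.24. Fut1, the related H transferase, was at 1.05 to 1.91 CPM with a difference of -0.58 ± 0.35 (interval -1.35 to 0.2), too imprecise to bound within 2-fold. Fut4, a fucosyltransferase of Lewis x structures, had a difference of -0.08 ± 0.14.

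Among sialyltransferases, St3gal4, which places sialic acid on galactose, fell in both genotypes, by 0.27 ± 0.04 and by 0.36 ± 0.05 (edgeR adjusted p = 0.003841 and 0.002871), with a difference of 0.1 ± 0.06. St3gal3, the enzyme that acts on type 1 chains, was at 14, 12.8 and 12.2 CPM and then 14.6, 15.1 and 14.3 CPM in inducible lines, and at 14.3 and 13 and then 14.8 and 11.6 CPM in negative lines, a difference of 0.23 ± 0.12 (interval -0.03 to 0.49). The smallest unadjusted p-values of the list belonged to Mgat5, which branches N-glycans (0.25 ± 0.07, edgeR adjusted p = 0.799), Fut8, the core fucosyltransferase (0.16 ± 0.07, 0.854), and Gcnt2, which branches poly-lactosamine (0.13 ± 0.06, 0.854). Gcnt2 rose by 0.16 ± 0.04 in inducible lines (edgeR adjusted p = 0.0322).

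The 25 measured genes of nucleotide sugar synthesis and transport had a median difference of -0.03 and 0 calls. Fuk, the fucose kinase of the salvage pathway, and Slc35a2, the Golgi carrier of UDP-galactose, had differences of -0.19 ± 0.08 and -0.21 ± 0.09 (edgeR adjusted p = 0.854 for both). Of 35 Golgi and vesicle coat genes 0 were called and 6 were higher at an unadjusted p under 0.05, 17.1% against 3.66% over all features. The first was Creb3l2, a transcription factor of secretory capacity released from the endoplasmic reticulum membrane, at 52.5, 50.4 and 46.8 CPM and then 53.8, 46 and 44.8 CPM in inducible lines. It went from 53.4 and 64.4 to 42.7 and 47.5 CPM in negative lines, where it fell by 0.38 ± 0.06 (edgeR adjusted p = 0.008124), and its difference was 0.33 ± 0.08 (adjusted p = 0.5936). Of 11 measured mucins and glycan carriers, 10 had a difference above 0, with a median of 0.07 and 0 calls. Cd44, the hyaluronan receptor, stood at 0.19 ± 0.05 (adjusted p = 0.799), and Dmbt1, a secreted scavenger receptor of ducts, at 0.79 ± 0.25 (adjusted p = 0.8012) with overlapping per-line changes.

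Signalling through the epidermal growth factor receptor (EGFR) was examined from receptor to early targets. Egfr itself was at 92.4, 105 and 135 CPM and then 104, 117 and 137 CPM in A217, A220 and A225, and at 105 and 100 and then 104 and 88.4 CPM in A218 and A223. The per-line changes did not overlap, and its difference was 0.21 ± 0.07 with an interval of 0.06 to 0.37 (edgeR adjusted p = 0.8158). Areg, the EGFR ligand amphiregulin, rose from 53.3, 56.1 and 81.1 CPM to 66.7, 77.2 and 95.8 CPM in inducible lines, by 0.34 ± 0.05 (edgeR adjusted p = 0.005961). It was at 61.9 and 64.5 and then 67.5 and 62.1 CPM in negative lines. Its difference of 0.3 ± 0.08 (interval 0.12 to 0.49) did not pass (adjusted p = 0.799). Efemp1, the matrix glycoprotein fibulin-3, which can bind EGFR, was at 195 to 233 CPM over the 10 libraries with a difference of 0.07 ± 0.05 (interval -0.04 to 0.19). Over the 14 measured members of the family and its regulators the median difference was 0.03 and 0 were called.

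Downstream, Egr1, an immediate early transcription factor, rose from 16.6, 26.7 and 18.5 CPM to 21.6, 28.3 and 24.3 CPM in inducible lines, by 0.29 ± 0.07 (edgeR adjusted p = 0.0383), and was at 23.5 and 28.2 and then 22.9 and 25.3 CPM in negative lines. The difference was 0.38 ± 0.11 (adjusted p = 0.799). Its per-line changes ran from 0.08 to 0.4 in inducible lines and were -0.04 and -0.15 in negative lines. Of 17 measured immediate early genes 3 were higher at an unadjusted p under 0.05 (17.6%, against 3.66% over all features): Egr1, Zfp36, which destabilises cytokine messages, and Dusp1, a phosphatase of MAP kinases. Dusp1 fell in negative lines by 0.37 ± 0.08. Of 20 ERK feedback and target genes 2 were higher at that level (10%, against the same 3.66%). These were Il1rn, the interleukin-1 receptor antagonist (0.25 ± 0.07), and Dusp5, a nuclear ERK phosphatase (0.19 ± 0.08). Of the 20 genes 0 were called. Their median difference was 0.05, and 16 of the 20 intervals lay within 1.5-fold.

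Genes of the unfolded protein response, by which the endoplasmic reticulum adjusts its folding capacity, had small differences, mostly above 0. Of 22 measured, 18 had a difference above 0, the median was 0.06, 0 were called, and all 22 intervals lay within 1.5-fold. Changes of 8 genes did not overlap with inducible lines above, 36.4% against 11.4% over all features. In inducible lines 5 rose, against 2.42% of all features, and in negative lines 1, against 1.22%; whether these counts differ was not tested. Hspa5, the chaperone BiP, rose from 865, 852 and 907 CPM to 1040, 986 and 1020 CPM in A217, A220 and A225, by 0.21 ± 0.04 (edgeR adjusted p = 0.008164). In A218 and A223 it was at 891 and 865 and then 922 and 900 CPM. Every inducible line had a larger change than every negative one, and the difference was 0.16 ± 0.06 (interval 0.03 to 0.28; adjusted p = 0.8322). Manf, a secreted factor of the same response, rose by 0.15 ± 0.03 in inducible lines with a difference of 0.13 ± 0.05. The median change of the list was 0.09, 0.09 and 0.1 in the inducible lines and 0.02 in each negative line. Of 26 integrated stress genes, which answer to ATF4, 1 was higher at an unadjusted p under 0.05 (3.85%, against 3.66% over all features). It was Aldh1l2, a mitochondrial folate enzyme, at 0.75 ± 0.28 (edgeR adjusted p = 0.8439). Its per-line changes were 0.24, 0.94 and 0.18 in A217, A220 and A225 and 0.16 and -0.64 in A218 and A223. The median of that list was 0.04.

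**Figure D3:**
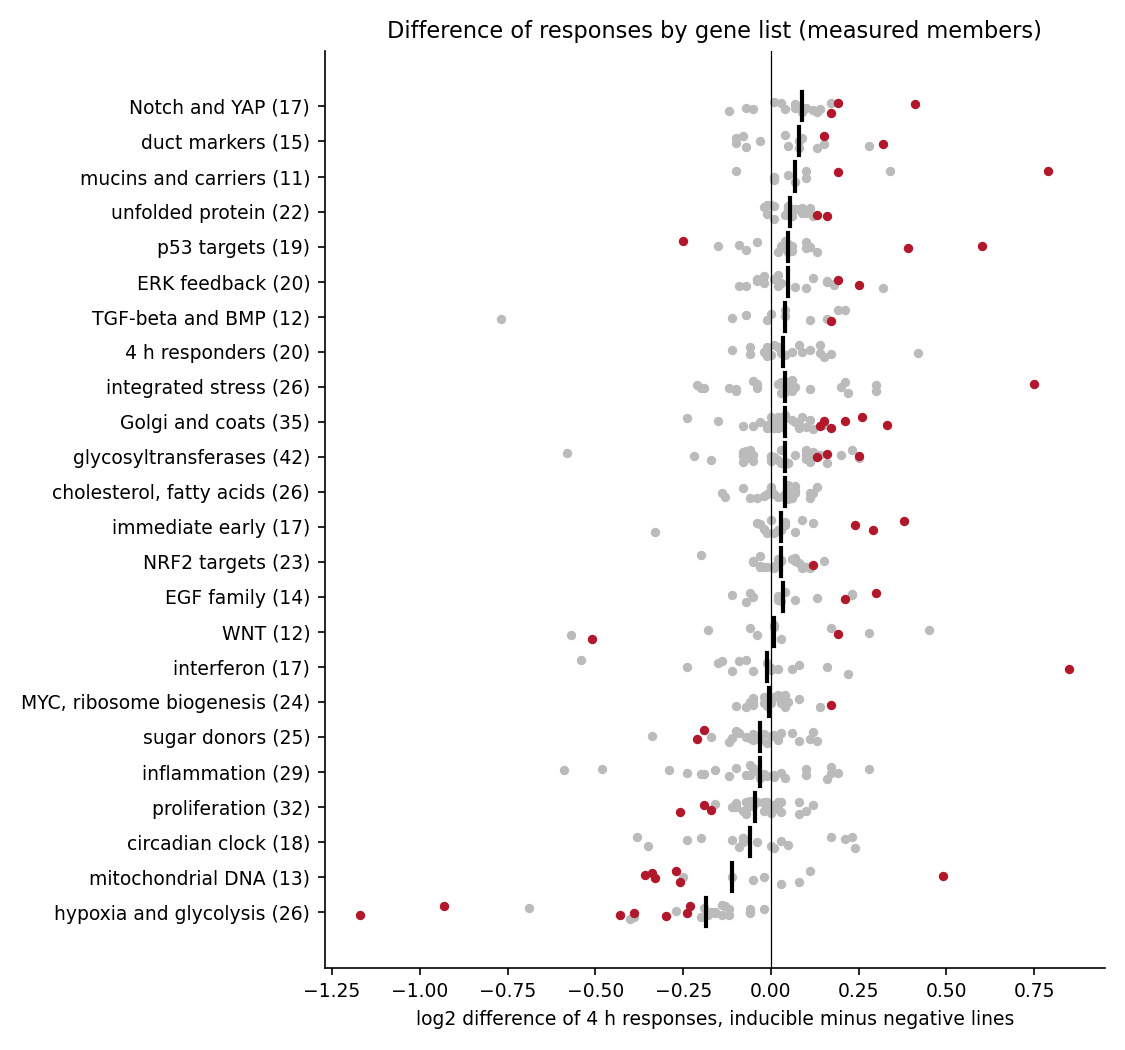
Difference of the 4 h responses (log2, inducible minus negative) of each measured member of 24 gene lists, with the number measured in brackets; red points have an unadjusted p under 0.05 in edgeR and black bars are medians. Medians run from -0.19 for hypoxia and glycolysis to 0.09 for Notch and YAP targets, and no point passed adjustment over all features.

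The coding genes nearest to the threshold, named by the smallest unadjusted p among genes with non-overlapping lines, were read for where their difference came from. Zbed6, a repressor encoded inside an intron of Zc3h11a on the same strand, so that reads of both cannot be separated there, was at 27.9, 27.7 and 27.6 CPM and then 32, 27.8 and 29.5 CPM in inducible lines. In negative lines it went from 30.2 and 27.6 to 22.5 and 19.7 CPM. Its difference was 0.56 ± 0.08 (edgeR adjusted p = 0.09335; 0.003758 to 0.9998 over 16 alternatives, of which 2 passed). Zbtb20, a zinc finger repressor, was at 17.7, 16.8 and 24.6 and then 16.5, 18.9 and 21.3 CPM in inducible lines and went from 26.2 and 27.2 to 13.5 and 16.3 CPM in negative lines, a difference of 0.8 ± 0.12 (adjusted p = 0.09335; 0.000739 to 0.9998 over 16 alternatives, of which 3 passed). In both genes the negative lines moved, with falls of 0.46 ± 0.06 and 0.85 ± 0.1 (edgeR adjusted p = 0.004733 and 0.001451), while the inducible lines stayed between -0.21 and 0.2.

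The same held for 5 of the other 6 genes on the higher side: Huwe1, a very large ubiquitin ligase, Cnbd2, Ahnak, a giant scaffold protein, Srrm2, a splicing scaffold, and Prrc2c fell in negative lines, by 0.26 to 0.42, and none of them passed in inducible lines. Lpp, a focal adhesion protein, was the exception. It rose by 0.24 ± 0.04 in inducible lines (edgeR adjusted p = 0.008164), from 51.2, 60 and 59.8 CPM to 60.4, 72.8 and 69.2 CPM, and had -0.14 ± 0.05 in negative lines. Before doxycycline both negative lines already lay above every inducible line for Zbtb20, Huwe1, Srrm2, Prrc2c and Lpp. Srrm2 was at 137 and 185 CPM in A218 and A223 at 0 h, against 122, 121 and 131 CPM in inducible lines. At 4 h it was at 112 and 126 against 123, 125 and 126 CPM. For Zbed6, Cnbd2 and Ahnak the genotypes overlapped at 0 h. The part of these start levels in the differences was not tested. Cnbd2 and Srrm2 overlap genes annotated on the other strand, and Cnbd2 and Zbtb20 overlap genes on their own strand. Whether strand was used in the counting is not stated, so reads from stretches that such genes share cannot be told apart.

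On the lower side stood mt-Co1, Gulp1, an adaptor of engulfment, Hmgb2, a chromatin protein of cycling cells, Hist2h2aa2, a histone H2A gene, Arhgap29, Erh, Dpm1, which makes the mannose donor of glycosylation, Foxo4, DXBay18 and Aoc1, with adjusted p of 0.4449 to 0.799. Gulp1 rose in negative lines, from 13.4 and 13.8 CPM to 18 and 19.3 CPM, by 0.45 ± 0.08, and was level in A217, A220 and A225 at 19.7, 14 and 11.2 and then 19.6, 14.3 and 11.8 CPM. Hmgb2 fell in inducible lines, from 133, 106 and 102 CPM to 103, 83 and 83.7 CPM, by 0.33 ± 0.07. In A218 and A223 it was at 109 and 95.5 and then 101 and 122 CPM, so the negative lines disagreed in sign. Hist2h2aa2 and Erh fell in inducible lines, by 0.25 ± 0.04 and 0.2 ± 0.04, with values of 0 ± 0.05 and 0.02 ± 0.04 in negative lines, and their differences were -0.25 ± 0.06 and -0.22 ± 0.06.

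Transcript length moved with the difference. The 8 genes on the higher side had a median effective length of 5815 bases and the 10 on the lower side 1930, against 2250 over 12248 genes. In 4 equal groups of genes from the shortest to the longest, the median difference went from -0.037 through -0.013 and 0.008 to 0.039. Genes at an unadjusted p under 0.05 were 43 higher and 122 lower in the shortest group and 260 higher and 20 lower in the longest. Across 12248 genes, which are not independent replicates, Spearman's rho between difference and length was 0.25. By line the rho of the 4 h change was 0.03, 0.07 and 0.11 in A217, A220 and A225 and -0.15 and -0.07 in A218 and A223. With an offset for effective length the medians of the groups still ran from -0.048 to 0.033. The part of length in the differences named here was not tested.

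**Figure D4:**
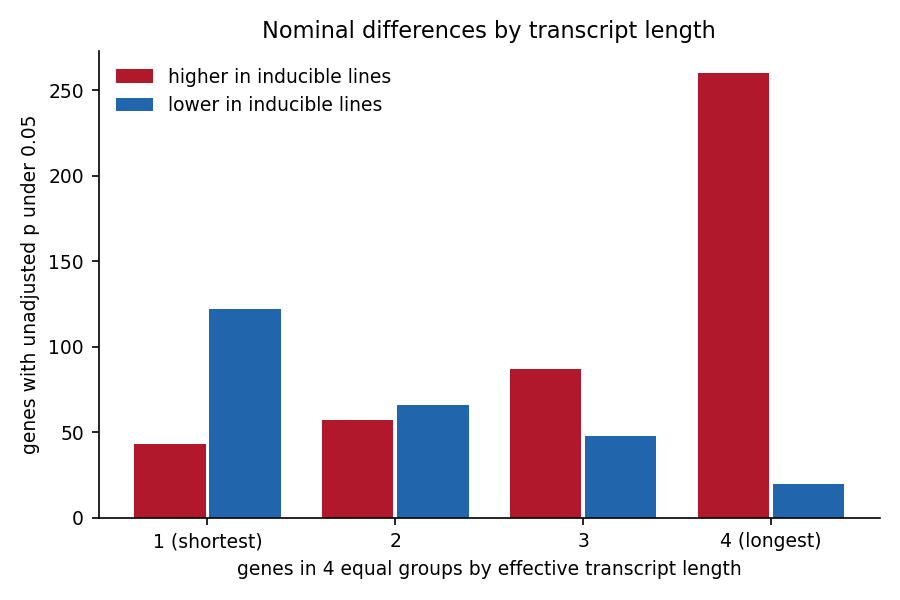
Number of genes with an unadjusted p under 0.05 for the difference of responses in edgeR, in 4 equal groups by effective transcript length (bars start at 0; red, higher in inducible lines; blue, lower). The longest group holds 260 higher and 20 lower genes and the shortest 43 and 122.

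Hypoxia and glycolysis genes, many of them targets of the hypoxia-inducible factors, had the lowest median of the 24 lists plotted. All 26 measured genes had a difference below 0, from -1.17 to -0.02 with a median of -0.19, 7 at an unadjusted p under 0.05 (26.9%, against 2.09% lower over all features), and 0 were called. The per-line values did not divide by genotype. The median change was -0.12 in A217 and -0.3 in A220, but 0.11 in the inducible line A225, beside 0.08 in A218 and 0.09 in A223. In A225 23 of 26 genes were higher at 4 h, against 2 in A217, 1 in A220, 23 in A218 and 21 in A223. Inducible changes lay below both negative ones for 6 genes, 23.1% against 9.29% over all features.

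Bnip3, a mitochondrial protein of hypoxic cells, was at 5.7, 17.5 and 6.19 CPM and then 4.28, 9.44 and 12.3 CPM in A217, A220 and A225, and at 9.23 and 9.61 and then 16.7 and 23.2 CPM in A218 and A223. A225 lay with the negative lines, and the difference was -1.17 ± 0.41 (edgeR adjusted p = 0.8322). Without A225 it was -1.76 and passed (edgeR adjusted p = 0.007351). So did Ndrg1 at -1.44, Ak4 at -1.78, Slc16a3, the lactate exporter, at -2.22 and Aldoc at -0.64. Each of these genes passed in 1 of 16 alternatives, the one without A225. A225 is the inducible line whose changes lay with the negative ones. Leaving it out therefore widens the difference, and these passes are no support for one. Pfkl, the liver-type phosphofructokinase, was at 205, 295 and 220 and then 181, 208 and 238 CPM in the inducible lines and at 215 and 249 and then 256 and 289 CPM in the negative lines (-0.43 ± 0.13, adjusted p = 0.799). P4ha1, a collagen prolyl hydroxylase, rose in negative lines from 35.2 and 43.4 CPM to 51.9 and 61.3 CPM, by 0.53 ± 0.1 (adjusted p = 0.01588), and was at 29.3, 39.9 and 40.2 and then 33.2, 35.9 and 51.9 CPM in inducible lines. The list's median was -0.29 without A225 and -0.1 without A220, the line with the highest Bnip3 at 0 h.

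Most of these genes have a listed promoter with a shared letter pattern. The core of the hypoxia response element, ACGTG or GCGTG on either strand, occurs in the 250 bases before a start of 23 of the 25 genes of the list found in the RefSeq table (92%), against 62.3% of 9352 tested genes with a promoter there and 38.6% of all 32851 promoters. A gene counted if any of its listed promoters matched, so the share of all promoters is a different measure. For Vegfa, Egln3 and Pgam1 the bases after each matching start were not found near the start of a GENCODE transcript. Such a fit held for 56.2% of all promoters. A match is no evidence of binding. The list was made of hypoxia and glycolysis genes, many of them targets of the hypoxia-inducible factors. A high share of the core can follow from that choice, so it says nothing about the 4 h response of these lines. The promoters of Bnip3, the member with the largest difference, and of P4ha1, the member that rose in negative lines, are given from RefSeq (GRCm38.p6), each 5′ to 3′ on the gene's strand, with matches in capitals. That of Bnip3 lies at chr7:138909507-138909756 on the minus strand and that of P4ha1 at chr10:59323046-59323295 on the plus strand. Adjacent capitals in Bnip3 hold 1 overlapping pair, since CACGTG reads as ACGTG on both strands.
Bnip3: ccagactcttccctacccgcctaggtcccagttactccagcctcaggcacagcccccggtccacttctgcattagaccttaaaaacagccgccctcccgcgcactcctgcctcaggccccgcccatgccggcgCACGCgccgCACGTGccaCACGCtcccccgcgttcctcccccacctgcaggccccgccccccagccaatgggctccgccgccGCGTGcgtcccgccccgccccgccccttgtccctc
P4ha1: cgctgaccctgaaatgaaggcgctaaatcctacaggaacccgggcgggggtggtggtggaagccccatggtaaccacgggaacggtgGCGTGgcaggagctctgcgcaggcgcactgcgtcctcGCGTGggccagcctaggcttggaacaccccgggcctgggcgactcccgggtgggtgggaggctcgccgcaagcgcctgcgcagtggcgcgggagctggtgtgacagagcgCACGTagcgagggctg
Bnip3 has 5 matches and P4ha1 has 3.

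**Figure D5:**
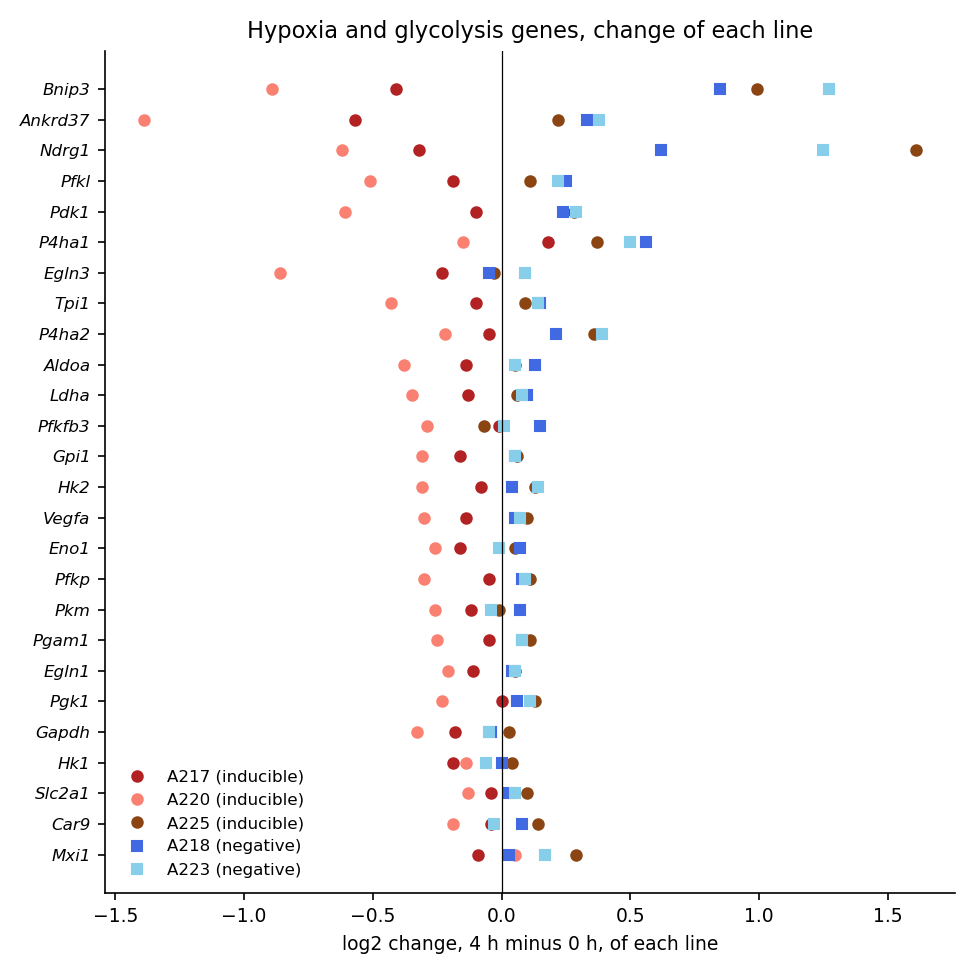
Log2 change from 0 to 4 h of each of the 26 measured hypoxia and glycolysis genes in each line (TMM-scaled CPM with 0.5 counts added; circles, inducible; squares, negative), ordered by the fitted difference. A217 and A220 lie mostly below 0, while A225 lies with A218 and A223, as for Bnip3 at 0.99 beside 0.85 and 1.27.

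Genes encoded in mitochondrial DNA make proteins of the respiratory chain. Of 13, 3 rose in inducible lines, where 2.42% of all features did, and 7 in negative lines, where 1.22% did. For the difference, 1 was higher and 5 were lower at an unadjusted p under 0.05 (46.2% in all, against 5.75% over all features), 0 were called, and the median was -0.11. mt-Co1 was at 5770, 4960 and 5490 CPM and then 6180, 5570 and 5440 CPM in A217, A220 and A225, and went from 4640 and 4160 to 5970 and 5810 CPM in A218 and A223. It rose in negative lines by 0.42 ± 0.06 (edgeR adjusted p = 0.003742), and its difference was -0.34 ± 0.07 (adjusted p = 0.4449). mt-Co2, a subunit of the same complex, went the other way: it rose from 195.5, 127.2 and 131.4 to 294.1, 217.7 and 178.7 CPM in inducible lines, by 0.6 ± 0.07 (adjusted p = 0.001351), and was at 162 and 242 and then 203 and 228 CPM in negative lines, a difference of 0.49 ± 0.12 (adjusted p = 0.5936). The list's median was -0.33 without A218 and -0.03 without A223.

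Proliferation genes had 22 of 32 differences below 0, a median of -0.05 and 0 calls, and all 32 intervals lay within 1.5-fold. In inducible lines 10 fell, against 3.18% of all features, and in negative lines 3, against 2.47%; whether these counts differ was not tested. Cdc20, the activator of the anaphase-promoting complex, fell from 260.6, 248.5 and 222.1 to 227.7, 217.2 and 205.6 CPM in inducible lines, by 0.17 ± 0.03 (edgeR adjusted p = 0.02004), and was at 241.2 and 230 and then 241.1 and 230.2 CPM in A218 and A223. Cdt1, a replication licensing factor, fell in both genotypes, by 0.45 ± 0.05 and 0.26 ± 0.06, with a difference of -0.19 ± 0.07 (adjusted p = 0.854). The median change of the list was -0.11 and -0.17 in A217 and A220, 0.01 in A225, -0.09 in A218 and -0.01 in A223. Of 19 p53 targets, Zmat3, an RNA-binding protein, was the one nearest to the threshold (0.39 ± 0.08, adjusted p = 0.2883), again with a fall in negative lines (0.33 ± 0.06).

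Remaining lists had medians near 0 and 0 calls. Of 17 measured Notch and YAP genes, 3 were higher at an unadjusted p under 0.05 (17.6%, against 3.66% over all features): Tead1, the DNA-binding partner of YAP (0.41 ± 0.08, edgeR adjusted p = 0.3493), Notch2 (0.17 ± 0.06) and Jag1 (0.19 ± 0.09). Inflammatory cytokine and NF-kB genes had a median of -0.03 over 29, and 0 reached an unadjusted p under 0.05. Cxcl2, a neutrophil chemokine, rose in both genotypes, by 0.73 ± 0.17 and 1.21 ± 0.21. Medians were -0.01 over 17 interferon genes, 0.04 over 26 genes of cholesterol and fatty acid synthesis, 0.01 over 12 WNT genes, 0.04 over 12 TGF-beta and BMP genes and -0.06 over 18 clock genes. Axin2, a feedback target of WNT signalling, had -0.51 ± 0.19 and Lgr5, an R-spondin receptor, -0.57 ± 0.26, neither of which passed (adjusted p = 0.854 for both).

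The 24 h difference shares the 0 h libraries with the one at 4 h, and its values stand only beside it. There edgeR called 2 of 12226 features, 0.0164%, the human transcripts at 7.96 and EGFP at 9.73. Zbed6 was at -0.02, Zbtb20 at 0.65, Hspa5 at -0.04, Areg at 0.16, Egr1 at 0.24, Creb3l2 at 0.47 (adjusted p = 0.08169) and Bnip3 at -0.86, none of them passing.

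The libraries held 48448180 to 59411540 estimated counts, of which 99.83% fell on tested features, and their TMM factors spanned 0.99 to 1.009. All 15 duct markers were measured, with a summed level of 11600 to 14700 CPM. Acinar markers summed to 2.02 to 3.01 CPM with Ptf1a, Pnlip and Cpa1 at 0 in all libraries, and endocrine markers to 0.318 to 0.761 CPM with Ins1, Ins2, Gcg and Ppy at 0. Endothelial markers summed to 4.48 to 8.13 CPM with Emcn at 0, immune markers to 2.71 to 4.43 CPM with Adgre1 at 0, and fibroblast and stellate markers to 0.423 to 6.46 CPM. In such bulk samples fewer cells of a type and less RNA per cell cannot be told apart.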

How the data were processed

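RNA from the organoid lines was sequenced after ribosomal RNA depletion, with paired reads, per the labels' protocols. The deposited files hold estimated counts per transcript, made by the authors with kallisto 0.43.1 on GRCm38, per the submitters' processing notes, which also name DESeq2 1.18.1, and deposited TPM values and effective lengths. No source used here names the transcript release. TPM served only to weight effective lengths. Estimated counts were summed per gene with GENCODE M21 and rounded, and 0.56% to 0.593% of counts fell on transcripts without a match and were left out. Features of at least 1 CPM on average were fitted with edgeR 4.0.16 (R, TMM scaling, quasi-likelihood test), with 1 coefficient per line and a 4 h coefficient per genotype, and p-values were adjusted over all features at 0.05. The test was checked on simulated data. Intervals are 95%, from the fitted difference and its SE. Per-line changes add 0.5 counts.

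Lines pair the libraries, since the same line was sampled at both times; deviations from group means of a line's 0 and 4 h libraries correlated at 0.701 to 0.754 in inducible lines and 0.617 in negative lines. Replicates of a group differed beyond counting noise (chi-square per degree of freedom 16.02 to 34.83). Named genes were construct sequences, called genes with non-overlapping lines or, up to 10 per direction, those of smallest p, up to 3 per list by p, chosen glycan and EGFR genes and the earlier named responders; Gm11518, Apob, Ndrg1, Ak4, Slc16a3, Aldoc and Exoc1 were added after their values were seen, as was the promoter motif. Members and gene lists were chosen with earlier results of these data known. Alternatives were limma 3.58.1, DESeq2 1.42.0, other scalings and filters, a length offset, no replicate block and leaving out lines. Sequences are from RefSeq and GENCODE.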

Additional observations from a re-analysis of the deposited data

Results flagged for a closer look

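The human transcripts, EGFP and Gm11518 are the features whose response differed between the genotypes by the test of the difference, with log2 differences of 8.62, 9.36 and 10.25. For the human transcripts and EGFP every inducible line rose, while the 4 h response of the negative lines did not pass. For Gm11518 line A220 stayed at 0 counts, and its sequence is contained in Rpl27, so that its own level is uncertain.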

How the results depend on the processing

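All alternatives kept the difference of the human transcripts (8.29 to 8.97) and EGFP (9.08 to 10.01) past the threshold wherever they were fitted. Against 3 called features, of which 0 were coding, DESeq2 called 15 (9 coding), edgeR's own filter on low counts 6 (1 coding), no filter 42 (21 coding), and a fit without the added sequences 1. Leaving out 1 line gave 3 to 16 called features (0 to 8 coding): 13 without A218 (7 coding) and 16 without A225 (8 coding). Without the replicate block the test called 2 features for the difference, 35 in inducible and 17 in negative lines, against 3, 687 and 452. With a length offset 298 and 164 were called. Leaving out 1 line gave 145 to 403 calls in the inducible response for a line of that genotype (167 without A217, 145 without A220, 403 without A225), up to 1029 otherwise, and 53 to 487 in the negative response (53 without A223, 247 without A217). Features with non-overlapping lines numbered 2533, and 3819 to 6918 with 1 line left out, where fewer values have to separate. No called difference changed sign, but that of Gm11518 passed in 10 of 16 alternatives (7.87 to 17.15), and differences that had not passed could, as for Oprd1 (-0.22 to 0.31) and Asns (-0.01 to 0.44). Among named genes 32 values passed that did not before, all under DESeq2, no filter, or without A218 or A225. Genes under 5 CPM were the least precise.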

Other observations

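The puromycin resistance sequence was among the features tested and was not called for the difference. It was found mainly in the inducible lines A217 and A220, with few counts in the negative line A218. It had 243 and 265 estimated counts at 0 and 4 h in A217, 29 and 80 in A220, 3 and 6 in A218, and 0 in A223 and A225. The bleomycin resistance sequence had 4 counts in A218 at 0 h and 0 in the other 9 libraries, and the neomycin resistance sequence had 0 in all 10.

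The 4 h change of the 26 hypoxia and glycolysis genes sorted the lines as A217 and A220 against A225, A218 and A223, a division that the genotype label does not give. Fibroblast and stellate markers, in sum, were highest in A225, at up to 6.46 CPM against at most 0.959 CPM in negative lines at 4 h; their part in the difference was not tested.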
